A study of Rattus norvegicus with 156 samples.

Results

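Gabapentin is used here in rats made neuropathic by spinal nerve ligation (SNL), in which the L5 and L6 spinal nerves of one side are tied. The comparison set ligated rats given gabapentin (SNL+GPN) against ligated rats given saline (SNL), matched by tissue and side. Samples were taken into it by their titles, in the 10 compartments that both treatments had, so that 20 of the 52 RNA samples of the series (60 of 156 arrays) entered. The compartments were the dorsal root ganglia (DRG) L4, L5 and L6 of the operated (ipsi) and other (contra) side, the ipsilateral sciatic nerve at mid thigh, each side of the spinal cord, and whole brain. The SNL+GPN contralateral nerve had no partner and was left out.

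SNL+GPN rats had received 100 mg/kg gabapentin by intraperitoneal injection once a day for 7 days, and SNL rats 0.9% saline on the same schedule. Both were killed 19 to 21 days after surgery, the window in which the last dose fell, and both were limited to ligated rats whose paw withdrawal threshold had dropped on the operated side. Sham rats (nerves exposed but not tied, saline), unoperated rats given gabapentin (Naive+GPN) and unoperated rats given saline (Naive) served as background. Each RNA sample was a single pool of 4 to 6 rats. No treatment was repeated within a tissue, and the only repeats of the drug comparison are its 10 tissue pairs. Whether the same rats gave every tissue is not stated, nor are strain, sex and age given, and p-values below measure the spread of the difference between tissues, not between animals.

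Gabapentin resembles the transmitter GABA in shape but is known to act mainly by binding the alpha2delta subunits of voltage-gated calcium channels. These subunits help carry the channels to the presynaptic membrane, and the drug is thought to reduce that traffic and with it transmitter release. The gene of the main target, Cacna2d1, is known to be induced in sensory neurons after nerve injury. Such an action on a protein need not show in RNA, and the question asked of these data is which transcripts differ between treated and untreated ligated rats, and in which tissues.

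Signals are Affymetrix probe set intensities, quantile normalized within each compartment. Differences are of log2 signal after a small constant was added to each signal, SNL+GPN minus SNL, so 1 means a doubling and low signals are understated. Tissue identity was checked on marker genes. Peripherin (Prph), an intermediate filament of peripheral neurons, had signals of 2270 to 2530 in SNL+GPN ganglia and 1860 to 2570 in SNL ganglia, against 13.5 and 10.9 in the 2 nerves. The oligodendrocyte gene Mobp had 797 and 946 in SNL+GPN cord and 956 and 966 in SNL cord, and 38.4 to 65.2 in SNL+GPN ganglia and 34.4 to 103 in SNL ganglia. Slc17a7, a vesicular glutamate transporter of forebrain neurons, was near the floor in every pool, brain included (1.94 in SNL+GPN and 2.48 in SNL brain). Skeletal muscle RNA was uneven: the mean log2 level of the muscle markers ran from 4.63 to 7.58 over SNL+GPN pools and from 4.88 to 7.05 over SNL pools, and Ckm, muscle creatine kinase, had 1460 in the SNL+GPN nerve against 121 in the SNL nerve.

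Across the 10 pairs 2 probe sets passed an adjusted p of 0.05 in limma's moderated test, 0.0125% of the 15965 tested, and both were lower with gabapentin. They belong to Marcks, a membrane-bound substrate of protein kinase C that binds actin in growing neurites, and to Sc5d, an enzyme of the late steps of cholesterol synthesis. At unadjusted p under 0.05 there were 811 higher and 851 lower probe sets. On the deposited scale, without normalization between arrays, 49 were called higher and 613 lower. In bulk tissue fewer cells of a type and less RNA per cell cannot be told apart, here and in all that follows.

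The Marcks probe set had a lowest, median and highest signal of 31.3, 51.8 and 137 over the SNL+GPN pools, against 51.3, 79.3 and 184 over the SNL pools. The ranges overlapped across tissues, but within tissues the SNL+GPN pool was lower in 10 of 10 pairs. It fell by 0.66 (SE 0.09, limma adjusted p = 0.0431), from -0.32 in the L6 contra ganglion to -1.22 in L6 ipsi. Marcks is carried by 14 probe sets on these arrays; of the 10 tested, 9 had a negative mean and 7 were lower at unadjusted p under 0.05, while the brightest was at -0.05 (adjusted p = 0.884), with signals of 154 to 624 in SNL+GPN and 150 to 641 in SNL pools. The called probe set was at -0.12 (adjusted p = 0.925) with gabapentin in naive rats.

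The Sc5d probe set had a lowest, median and highest signal of 14.8, 59.4 and 110 over SNL+GPN pools, against 19.1, 79.0 and 170 over SNL pools. It was lower in 10 of 10 pairs and differed little between tissues, from -0.29 in nerve to -0.62 in ipsilateral cord, with a mean of -0.44 (SE 0.06, limma adjusted p = 0.0431). Another Sc5d probe set was lower in every pair as well, by -0.56 (adjusted p = 0.0923), and the brightest was not (0.07, adjusted p = 0.831). Other genes of cholesterol and fatty acid synthesis did not follow: of 22 kept, 2 were higher and 1 lower at unadjusted p under 0.05, with a median of 0.03. The shares of all 8299 genes were 4.83% higher and 5% lower. With gabapentin in naive rats the called Sc5d probe set was at 0.25 (adjusted p = 0.753).

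Both calls sat near the threshold. Without any 1 compartment other than brain, Marcks moved to adjusted p = 0.0574 to 0.147, and without brain it had 0.0345; Sc5d moved to 0.06 to 0.154 without any 1 of the 10. With the tissues averaged to 1 value each, both had adjusted p = 0.732. The direction was negative in all of these.

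**Figure D1:**
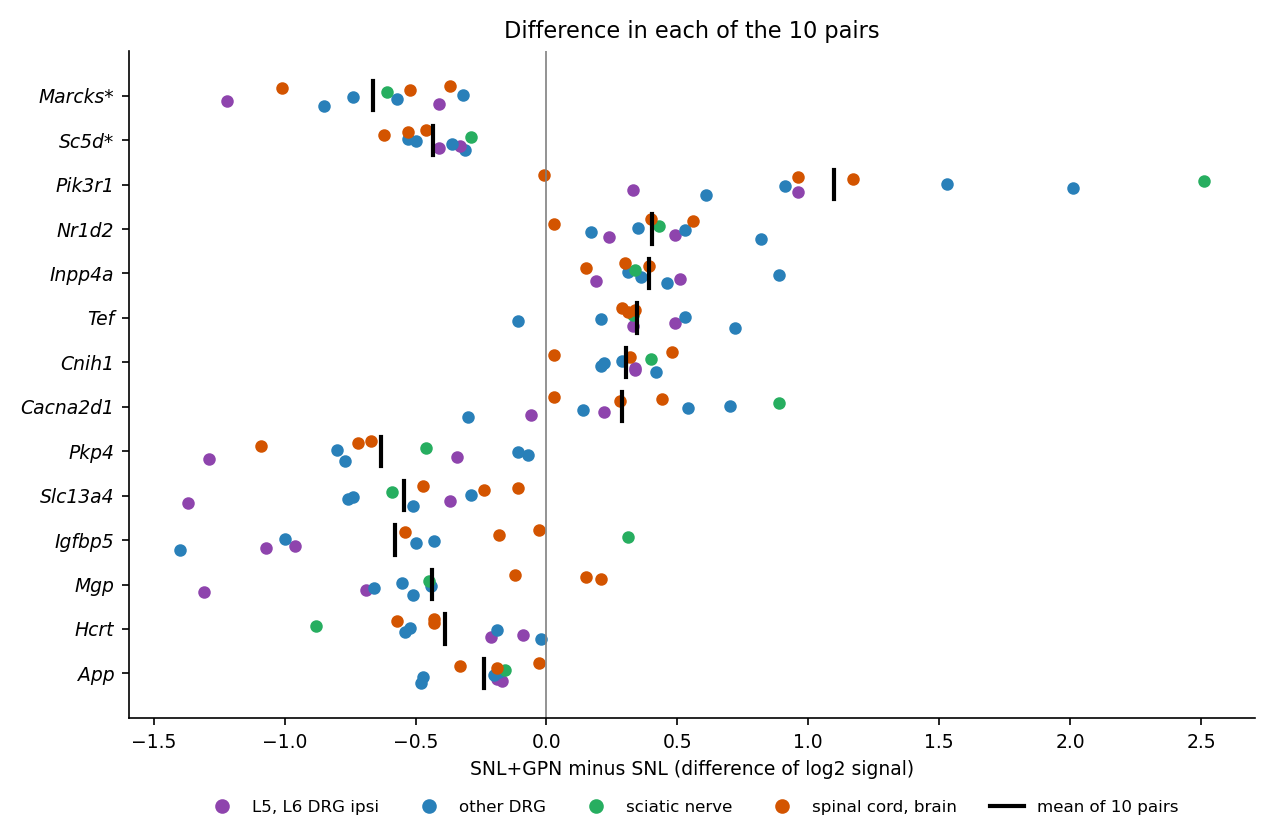
Difference SNL+GPN minus SNL (log2 signal, x axis) in each of the 10 pairs for 14 genes; each point is 1 pair, coloured by tissue, and the bar is the mean. Marcks* and Sc5d* are the called probe sets, with all 10 points below 0; the other genes are shown by their brightest probe set and did not pass the adjusted test.

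Past these, the genes with the lowest p did not pass, though several pointed the same way in every tissue. Inpp4a, a phosphatase of inositol lipids, had median signals of 169 in SNL+GPN and 125 in SNL pools and was higher in 10 of 10 pairs (0.39, SE 0.07, adjusted p = 0.0923). Cnih1, a cargo receptor for export from the endoplasmic reticulum, had medians of 169 and 134 in SNL+GPN and SNL pools and was also higher in all 10 (0.31, adjusted p = 0.0954). Pik3r1, the regulatory subunit of phosphoinositide 3-kinase, had medians of 31.2 in SNL+GPN and 10.5 in SNL pools and was higher in 9 of 10 (1.10, adjusted p = 0.102), at signals close to the floor. In naive rats the drug difference was 0.08 for Inpp4a and 0.01 for Cnih1, and Pik3r1 was not kept there.

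On the lower side, Pkp4, a plakophilin of cell junctions, had medians of 30.2 in SNL+GPN and 50.8 in SNL pools and was lower in all 10 pairs (-0.63, adjusted p = 0.0954). App, the amyloid precursor protein gene, had medians of 814 and 1030 in SNL+GPN and SNL pools, was lower in all 10, and differed by -0.24 (adjusted p = 0.121). Slc13a4, a sulfate transporter, was lower in all 10 as well, by -0.55 (adjusted p = 0.102). For these 3 genes the naive drug difference was of the other sign, 0.45, 0.14 and 0.17, with adjusted p of 0.67, 0.753 and 0.804. The test of the difference between ligated and naive rats gave -1.12 for Pkp4, -0.41 for App and -0.72 for Slc13a4, with adjusted p of 0.137, 0.137 and 0.194.

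Of the clock and clock-output genes, 12 were kept; Nr1d2, a nuclear receptor that represses clock genes, was higher in 10 of 10 pairs (0.40, adjusted p = 0.102). Tef, a clock-controlled transcription factor, was at 0.34 (adjusted p = 0.121) but at -0.12 with the deposited scaling. The clock list as a whole had 2 genes higher and 1 lower at unadjusted p under 0.05 (median 0.05), against 4.83% and 5% of all genes. The time of day of killing is not given.

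The gene of the drug's target was high in the ligated ganglia with and without gabapentin. Cacna2d1 signals in SNL+GPN and SNL pools were 323 and 336 in the ligated L5 ganglion and 418 and 359 in the ligated L6 ganglion. In the same ganglia it had 92.2 and 45.6 in Sham, 90.2 and 68.9 in Naive+GPN, and 80.2 and 105 in Naive pools. The L4 ganglion of the operated side, whose nerve was not tied, had 135 in SNL+GPN and 167 in SNL, above the 72.1 of Sham, 85.5 of Naive+GPN and 57.8 of Naive. In ligated rats the 2 ligated ganglia were the highest of all compartments with and without the drug, and the L4 ipsi ganglion followed.

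Elsewhere in ligated rats Cacna2d1 was lower in absolute signal. The contralateral L4, L5 and L6 ganglia had 65.7, 86.7 and 111 in SNL+GPN, against 59.0, 57.9 and 66.0 in SNL. Sham had 93.3, 87.4 and 87.2 there. Naive+GPN had 81.1 in L4 and 99.8 in L6, and Naive had 53.0 in L4 and 94.9 in L5. Ipsilateral cord, contralateral cord and brain had 59.0, 43.7 and 77.1 in SNL+GPN, against 47.6, 30.8 and 75.2 in SNL, and nerve had 24.7 against 10.6. In the same order, Sham had 34.8, 39.9, 94.6 and 40.5, Naive+GPN 42.9, 36.3, 80.8 and 14.9, and Naive 21.9, 34.6, 127 and 86.3. In L5 and L6 contra, contralateral cord, brain and nerve the SNL pool was thus the lowest of the pools measured. SNL+GPN was the higher pool in 8 of 10 pairs; the exceptions were the L4 and L5 ipsi ganglia, at -0.30 and -0.06.

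The mean difference of Cacna2d1 was 0.29 (SD 0.36, n = 10 pairs), with an exact two-sided sign-flip permutation p of 0.0352, where the smallest possible is 0.00195. Among all probe sets limma gave it an adjusted p of 0.34. Leaving out a single compartment gave means of 0.22 to 0.35, and the exact p was above 0.05 without L6 ipsi (0.0547), L4 contra (0.0547), L5 contra (0.0703), L6 contra (0.0703), nerve (0.0703), ipsilateral cord (0.0586) or contralateral cord (0.0703). It was 0.0117 without L4 ipsi, 0.0312 without L5 ipsi and 0.0391 without brain. With 1 value for each of the 4 tissues the mean was 0.37 and the exact p 0.125, the smallest that 4 values allow.

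**Figure D2:**
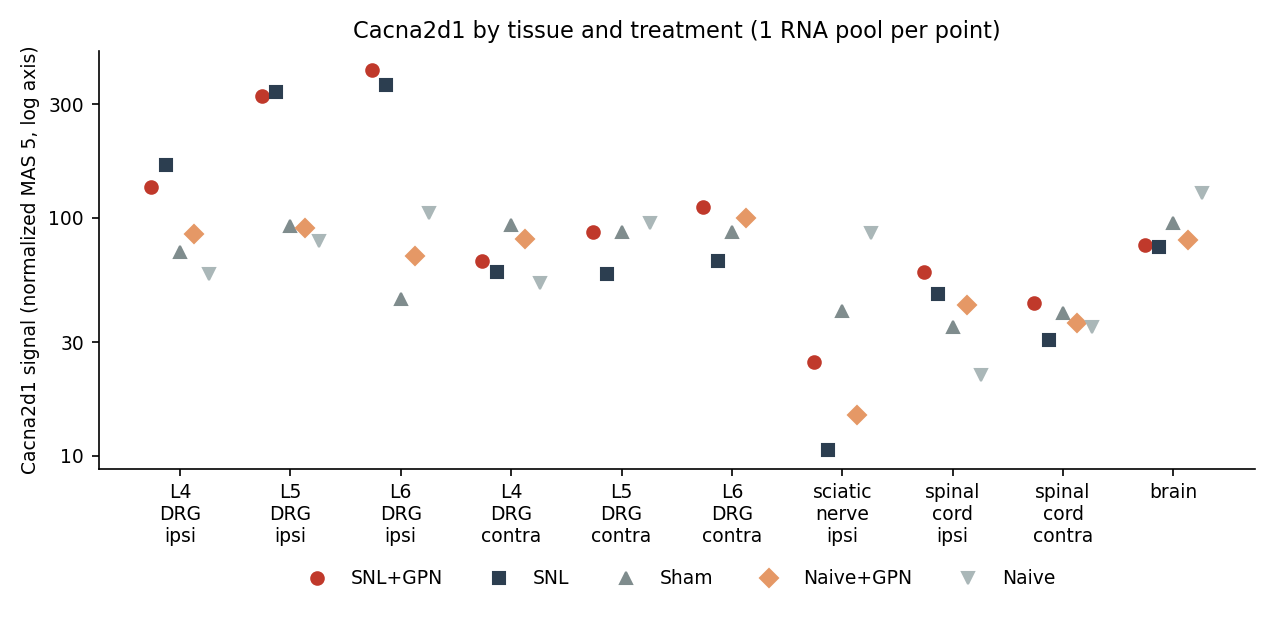
Normalized Cacna2d1 signal (log axis) in each compartment, 1 RNA pool per point, for SNL+GPN, SNL, Sham, Naive+GPN and Naive. SNL+GPN and SNL pools stand together above the other pools in the ligated L5 and L6 ganglia (323 and 336, 418 and 359), and SNL+GPN lies above SNL in 8 of 10 compartments.

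Genes close to the drug's action gave few differences over the 10 pairs. Of 9 kept calcium channel subunit genes 2 were higher at unadjusted p under 0.05 and none lower, where 4.83% of all 8299 genes were higher and 5% lower; the second was Cacnb3, a cytoplasmic beta subunit (0.22, adjusted p = 0.253, higher in 9 of 10). Median differences were 0.02 over these 9, 0.02 over 10 genes of amino acid transport, including the carriers that bring gabapentin into cells, -0.01 over 13 genes of the GABA system and -0.07 over 17 glutamate receptors and transporters, against 0.01 over all genes. Gabra2, a GABA-A receptor subunit, was at -0.27 (adjusted p = 0.261), Slc6a5, the neuronal glycine transporter, at -0.33 (adjusted p = 0.472) and Slc17a6, the vesicular glutamate transporter of sensory and spinal neurons, at -0.22. Of 4 kept genes of thrombospondins and other partners of alpha2delta none was past that p over the 10 pairs (median -0.08). In ganglia alone 2 of the 4 were lower at that p, where 4.14% of 8340 genes were higher and 4.44% lower. They were the endocytic receptor gene Lrp1 at -0.30 (adjusted p = 0.408) and the thrombospondin gene Thbs4 at -0.26 (adjusted p = 0.484). The median of these 4 genes was below 0 in 6 of 6 ganglia. The same held for the interferon response and MHC class II lists.

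Among channels of sensory neurons, the sodium channel gene Scn11a was higher in all 6 ganglion pairs, with 44.0 to 617 in SNL+GPN and 27.1 to 534 in SNL ganglia (0.36, adjusted p = 0.257). Trpv1, the capsaicin and heat receptor, was at 0.38 over the 10 pairs (adjusted p = 0.186, higher in 9). Of 10 sodium channel genes 1 was higher at unadjusted p under 0.05, and of 20 potassium and HCN channel genes 3 were, with none lower in either list. The shares of all genes were 4.83% higher and 5% lower. Neuropeptides had 3 of 18 lower and none higher: Hcrt, or orexin (-0.39, adjusted p = 0.122, lower in 10 of 10), Avp, or vasopressin (-0.34), and Pdyn, the dynorphin precursor (-0.15). Hcrt gave 32.7 to 99.3 in SNL+GPN and 62.2 to 117 in SNL pools, ganglia and nerve included, although its neurons are known only from the hypothalamus.

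The genes known to be turned on by nerve injury had similar signals in the treated and untreated ligated ganglia. Vip, a peptide transmitter that injured sensory neurons start to make, had 359 in SNL+GPN and 285 in SNL L5 ganglia, against 24.6 in Sham, 8.22 in Naive+GPN and 2.58 in Naive. In L6 it had 350 in SNL+GPN and 398 in SNL, against 6.6, 2.3 and 2.29 in Sham, Naive+GPN and Naive. The SNL minus Naive difference of Vip was 5.05 and 5.57 in L5 and L6, while the drug difference was 0.33 and -0.18.

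Npy, another induced peptide, had 2170 and 2500 in the SNL+GPN L5 and L6 ganglia, against 1840 and 2560 in SNL and 74.4 and 54.2 in Naive. Gal, the galanin gene, had 874 and 1060 in SNL+GPN, against 809 and 956 in SNL and 60 and 28.4 in Naive. Atf3, a transcription factor that marks axotomized neurons, had 516 and 631 in SNL+GPN, against 485 and 555 in SNL and 65.4 and 47.3 in Naive. The growth cone gene Gap43 had 1370 and 1430 in SNL+GPN, against 1210 and 1320 in SNL and 499 and 621 in Naive. Sham had 206 and 107 for Npy, 133 and 79.6 for Gal, 102 and 52.7 for Atf3, and 697 and 732 for Gap43. In all 4 genes both ligated treatments lay above the Sham and Naive pools. The SNL minus Naive difference was smallest for Gap43, at 1.265 in L5 and 1.085 in L6. The drug differences of the 4 genes ran from -0.04 to 0.24.

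The complement and antigen presentation genes stood above the unligated pools too. C1qb, a chain of the first complement component, had 325 and 296 in SNL+GPN L5 and L6 ganglia, against 344 and 276 in SNL and 43.9 and 41.4 in Naive. C3, the central complement protein, had 54.8 and 82.3 in SNL+GPN, against 81.5 and 107 in SNL and 7.34 and 6.18 in Naive, so it was lower with the drug in both ganglia, by -0.53 and -0.35. Cd74, the invariant chain of MHC class II, had 1420 and 1320 in SNL+GPN, against 1660 and 1500 in SNL and 105 and 113 in Naive. With 1 pool per ganglion there is no replicate check on any of these single differences. The whole axon injury list, 23 genes kept in ganglia, had a median of -0.04 over the 6 ganglion pairs, with 1 gene higher and 1 lower at unadjusted p under 0.05. The shares of all genes there were 4.14% and 4.44%.

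**Figure D3:**
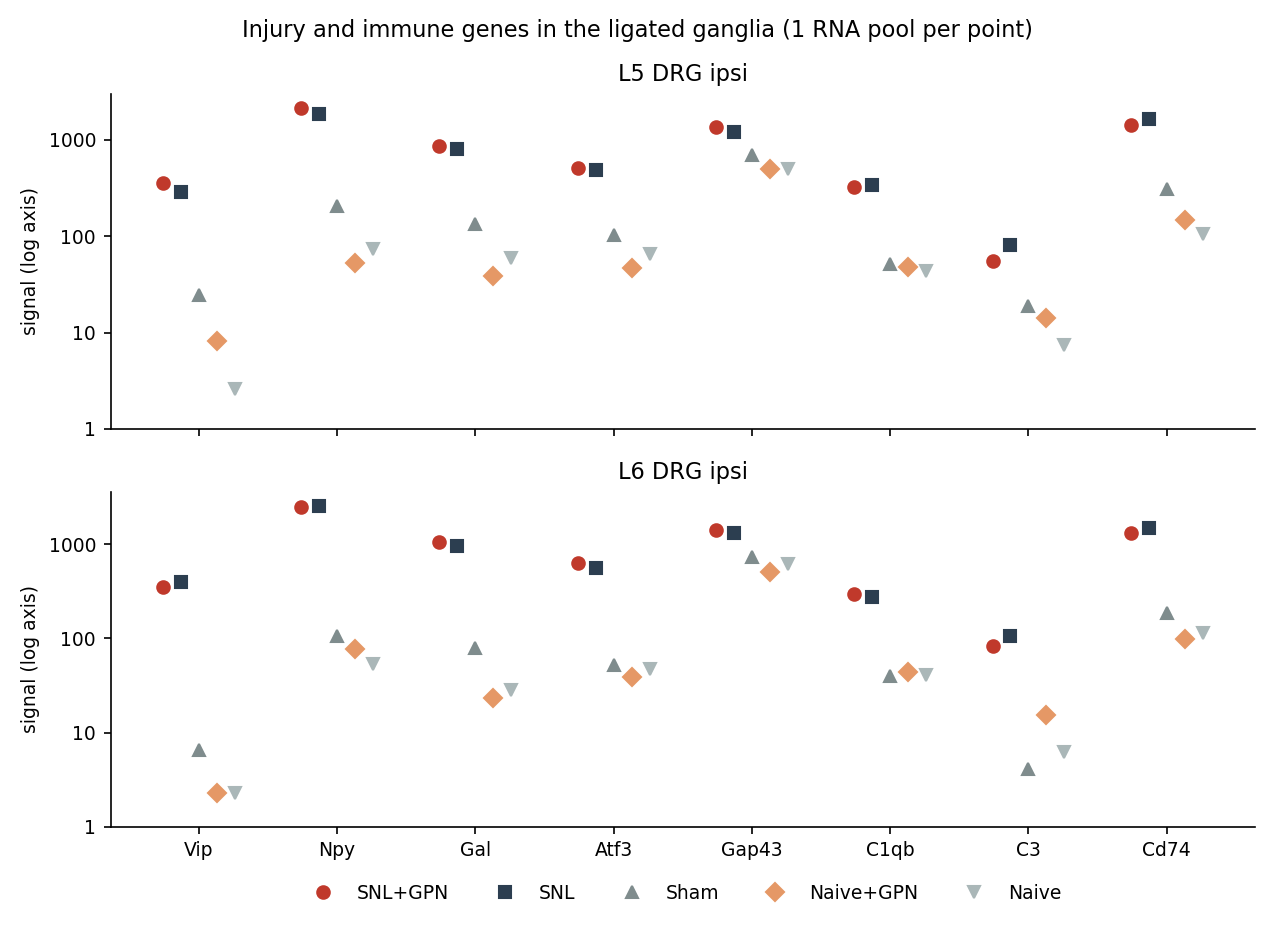
Normalized signal (log axis) of 8 genes in the ligated L5 (top) and L6 (bottom) ganglia, 1 RNA pool per point, for SNL+GPN, SNL, Sham, Naive+GPN and Naive. SNL+GPN and SNL lie side by side and above the other pools for every gene; the drug differences run from -0.53 to 0.33 and the SNL minus Naive differences from 1.09 to 5.57.

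Ganglia were then taken apart from the other tissues. No probe set of 16112 passed in the 6 ganglion pairs (0%, limma; lowest adjusted p 0.124), with 703 higher and 780 lower at unadjusted p under 0.05; the deposited scale gave 2 higher and 24 lower calls. The lowest adjusted p belonged to Igfbp5, a binding protein for insulin-like growth factors made by fibroblasts and glia. Its brightest probe set had 338, 615, 487, 309, 260 and 203 in the SNL+GPN L4, L5, L6 ipsi and L4, L5, L6 contra ganglia, against 904, 1300, 955, 439, 352 and 411 in SNL. It was lower in 6 of 6, by -0.89 on average (SE 0.12, adjusted p = 0.124). The other 2 tested Igfbp5 probe sets were at -0.93 and -1.31. Over the 9 naive pairs, which include nerve, cord and brain, the drug difference of the brightest was 0.01. In cord and brain of ligated rats it was -0.25.

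Extracellular matrix genes were lower together in treated ganglia, although no single one passed. Of the 29 kept, 15 were lower and 1 higher at unadjusted p under 0.05, where 4.44% of 8340 genes were lower and 4.14% higher, and the median was -0.24 against 0.01 for all genes. Mgp, an inhibitor of calcification in connective tissue, had 890, 1470, 1780, 588, 572 and 357 in the SNL+GPN ganglia in the order above, against 1270, 3660, 2860, 935, 778 and 524 in SNL. It was lower in 6 of 6 (-0.69, SE 0.11, adjusted p = 0.214), most in L5 ipsi, at -1.31. Ogn and Dcn, small proteoglycans that coat collagen fibrils, were also lower in 6 of 6, by -0.75 (adjusted p = 0.243) and -0.61 (adjusted p = 0.257).

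Collagens and elastic fibre genes took part as well: Col1a1, Col1a2 and Col3a1 were at -0.26, -0.26 and -0.24, Fn1 at -0.38, Eln at -0.38 and Fbn1 at -0.35. Timp2, an inhibitor of matrix proteases, was the 1 gene higher, at 0.14, and Col4a2, a basement membrane collagen, was at 0.17 without reaching that p. By compartment the list median was -0.35, -0.32 and 0.02 in the L4, L5 and L6 ipsi ganglia and -0.28, -0.15 and -0.05 in L4, L5 and L6 contra. The naive and Sham tests took ganglia, nerve, cord and brain together, not ganglia alone. With gabapentin in naive rats the same list had 2 of 29 higher and none lower (median 0.02), against backgrounds of 2.42% higher and 3.4% lower genes. Within the naive ganglia its median was below 0 in 3 and above 0 in 1. In Sham against Naive it had 2 higher and 1 lower (median -0.03), against 7.92% and 7%. Within those ganglia its median was below 0 in 3 and above 0 in 2.

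The matrix count depended on the scaling: with deposited scaling 5 of 29 were lower and none higher in ganglia (median -0.15), and with scaling to the median 10. Leaving out 1 ganglion gave 10 to 18 lower. With the muscle, red blood cell or RNA quality (GAPDH) difference of each pair as a covariate, 13, 17 and 13 were lower.

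Some genes known from the leptomeninges and the sheaths around ganglia were lower there too; these 4 were picked because they were lower, after their values were seen, and are given without a test. Ptgds, the prostaglandin D synthase of arachnoid cells, had 683, 536, 976, 767, 528 and 290 in the SNL+GPN ganglia, in the same order, against 1370, 2270, 1560, 1120, 726 and 645 in SNL. Cldn11, a tight junction claudin of arachnoid cells and oligodendrocytes, had 16.0 to 71.9 in SNL+GPN ganglia and 45.1 to 183 in SNL ganglia, and was lower in all 6. Gja1, a gap junction gene of meningeal cells and astrocytes, had 45.9 to 91.0 and 73.4 to 199 in SNL+GPN and SNL ganglia, and Slc13a4 had 39.8 to 86.7 and 49.6 to 197. Gjb2, another gap junction gene of meningeal cells, went both ways. By its brightest probe set it was higher in 3 of the 4 ganglia other than the ligated ones. In the ligated L5 and L6 ipsi ganglia it was far lower, with the signals given further below. The oligodendrocyte list, which holds Cldn11, had 5 of 12 higher and 1 lower in ganglia at unadjusted p under 0.05. The shares of all genes there were 4.14% and 4.44%. In spinal cord and brain the mean drug differences of the picked 4 genes were -0.22, -0.02, 0.01 and -0.27. The amount of sheath in each dissected ganglion was not measured, and its part in the matrix result was not tested.

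**Figure D4:**
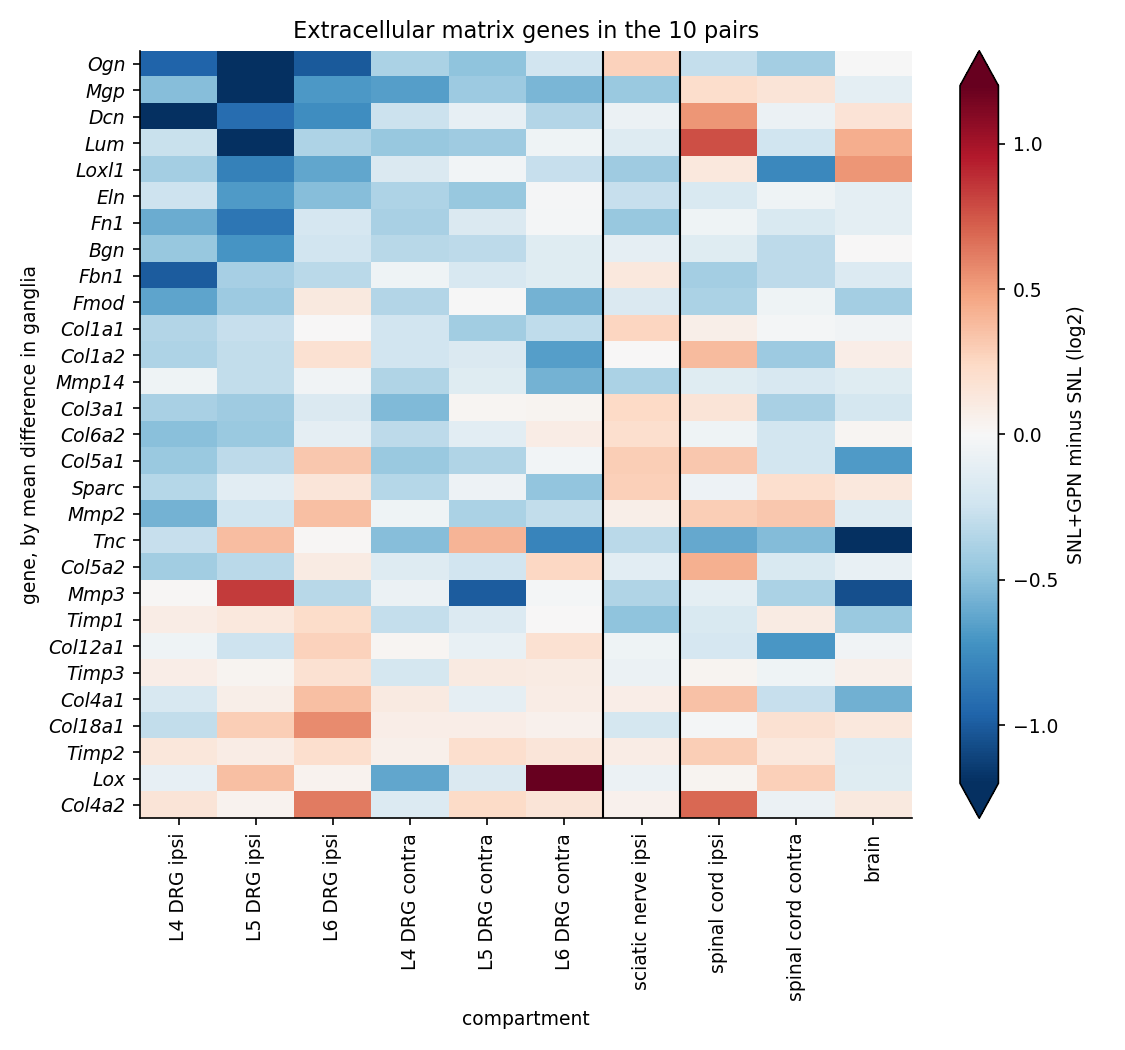
Difference SNL+GPN minus SNL (log2, colour) of the 29 kept extracellular matrix genes (rows, by their mean difference in ganglia) in the 10 compartments (columns); lines part ganglia, nerve, and spinal cord with brain. Blue is lower with gabapentin; column medians are -0.35 and -0.32 in the L4 and L5 ipsi ganglia and -0.18 to 0.03 in nerve, cord and brain.

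Complement and MHC class II genes were also more often lower than higher in treated ganglia, while macrophage markers went both ways. Of 20 kept complement genes 7 were lower and none higher at unadjusted p under 0.05 (median -0.21). Of all genes, 4.44% were lower and 4.14% higher. Without L4, L5 or L6 ipsi, each left out in turn, 4 complement genes were lower. C1s, a protease of the first complement component, had 62.2, 199, 209, 31.5, 50 and 41.5 in the SNL+GPN ganglia, against 126, 612, 375, 57.8, 58.6 and 49.3 in SNL, lower in 6 of 6 (-0.76, adjusted p = 0.243). C1qa was at -0.48 and C1r at -0.29; Serping1, the inhibitor of C1, was at -0.27 and Vtn, vitronectin, at -0.36. Of 11 MHC class II genes 6 were lower and none higher (median -0.23), among them RT1-Da at -0.47 and RT1-Ba at -0.34, but none was lower at that p with deposited scaling. Of 20 macrophage and microglia markers 4 were lower, Aif1, Ctss, Lyz2 and Fcer1g, at -0.53, -0.32, -0.29 and -0.23, and 3 were higher, Spp1, Lgals3 and Ctsb, at 0.25, 0.16 and 0.14. Of 18 cytokines and chemokines 1 was lower and none higher. The Sham and naive tests took ganglia, nerve, cord and brain together. In Sham against Naive, 6 of 20 complement genes were higher and 1 lower, against 7.92% higher and 7% lower of all genes. In naive rats gabapentin gave 1 of 20 higher and 1 lower, against 2.42% and 3.4% of all genes. The MHC class II list also moved without the drug. In Sham against Naive 4 of its 11 genes were higher and 1 lower (median 0.23), against 7.92% higher and 7% lower of all genes. In naive rats gabapentin gave 1 higher and none lower (median 0.07).

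Among neuronal genes, of 10 kept markers of large sensory neurons 4 were higher and none lower in ganglia (median 0.15): Kcna1, an axonal potassium channel, Spp1, osteopontin, also counted above as a macrophage marker, Nefl, a neurofilament, and Pvalb, parvalbumin. Without L6 ipsi 2 of the 10 were higher. Kcna1 had 321, 243, 202, 469, 433 and 343 in the SNL+GPN ganglia, against 217, 201, 138, 369, 348 and 207 in SNL, higher in 6 of 6 (0.45, SE 0.08, adjusted p = 0.214). Pvalb, which fast muscle also makes, reached 648 in the SNL+GPN L5 ipsi ganglion against 97.0 in SNL, where the muscle markers were higher by 1.2 as well; the part of muscle in it was not tested. Gnai1, an inhibitory G protein subunit, was higher in 6 of 6 (0.61, adjusted p = 0.214). Ribosomal protein genes had 11 of 53 lower and none higher (median -0.09). Of all genes, 4.14% were higher and 4.44% lower in these ganglia. Both lists also moved without the drug, in a test that took ganglia, nerve, cord and brain together. In Sham against Naive 14 of 52 ribosomal protein genes were higher and none lower (median 0.09). There 3 of 10 large sensory neuron markers were lower and none higher (median -0.12), against 7.92% higher and 7% lower of all genes.

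The 3 CNS pairs, each side of the cord and brain, gave no call among 15750 probe sets (0%; lowest adjusted p 0.284, 512 higher and 534 lower at unadjusted p under 0.05); on the deposited scale 65 were called higher and 158 lower. Complement there had 3 of 20 genes higher and 1 lower, where 3.17% of 8170 genes were higher and 2.85% lower. As a list it did not rise: 12 of the 20 had a mean below 0, and the median was -0.04. C3 had 189, 83.2 and 26.7 in SNL+GPN ipsilateral cord, contralateral cord and brain, against 120, 58.0 and 8.74 in SNL (0.76, adjusted p = 0.711). C1qb had 388, 152 and 92.3 in SNL+GPN, against 321, 112 and 41.8 in SNL (0.58), and C2 was at 0.38, while C5ar1, a receptor for a complement peptide, was at -0.29. Each of C3 and C1qb was higher in 3 of 3 pairs.

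The lowest p among genes in CNS belonged to Myl9, a smooth muscle myosin light chain, at 1.61 (adjusted p = 0.444), Igf2r at 1.00 and Sgk1, a kinase induced by glucocorticoids, at 0.63, all higher. Pip4p1 (-0.77), Pkp4 (-0.83) and Ptgir, a prostacyclin receptor (-0.53), led the lower ones. Of 13 glucocorticoid-responsive genes 4 were higher and none lower in CNS, where 3.17% of all genes were higher and 2.85% lower. Without brain 2 were higher and 1 lower.

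Whether the drug difference itself differed between CNS and ganglia was tested directly. No probe set of 15681 passed (0%; 408 higher and 349 lower in CNS at unadjusted p under 0.05). P2rx3, an ATP-gated channel of nociceptors, had the lowest p among higher genes, with a difference of 0.90 between CNS and ganglia (adjusted p = 0.421). It had 38.5, 47.0 and 20.3 in SNL+GPN ipsilateral cord, contralateral cord and brain, against 17.8, 22.3 and 9.36 in SNL, and 162 to 388 in SNL+GPN ganglia against 151 to 386 in SNL. Mgp was at 0.77 (adjusted p = 0.729) and C1s at 1.21 (adjusted p = 0.729), so neither gene passed for a difference between CNS and ganglia.

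**Figure D5:**
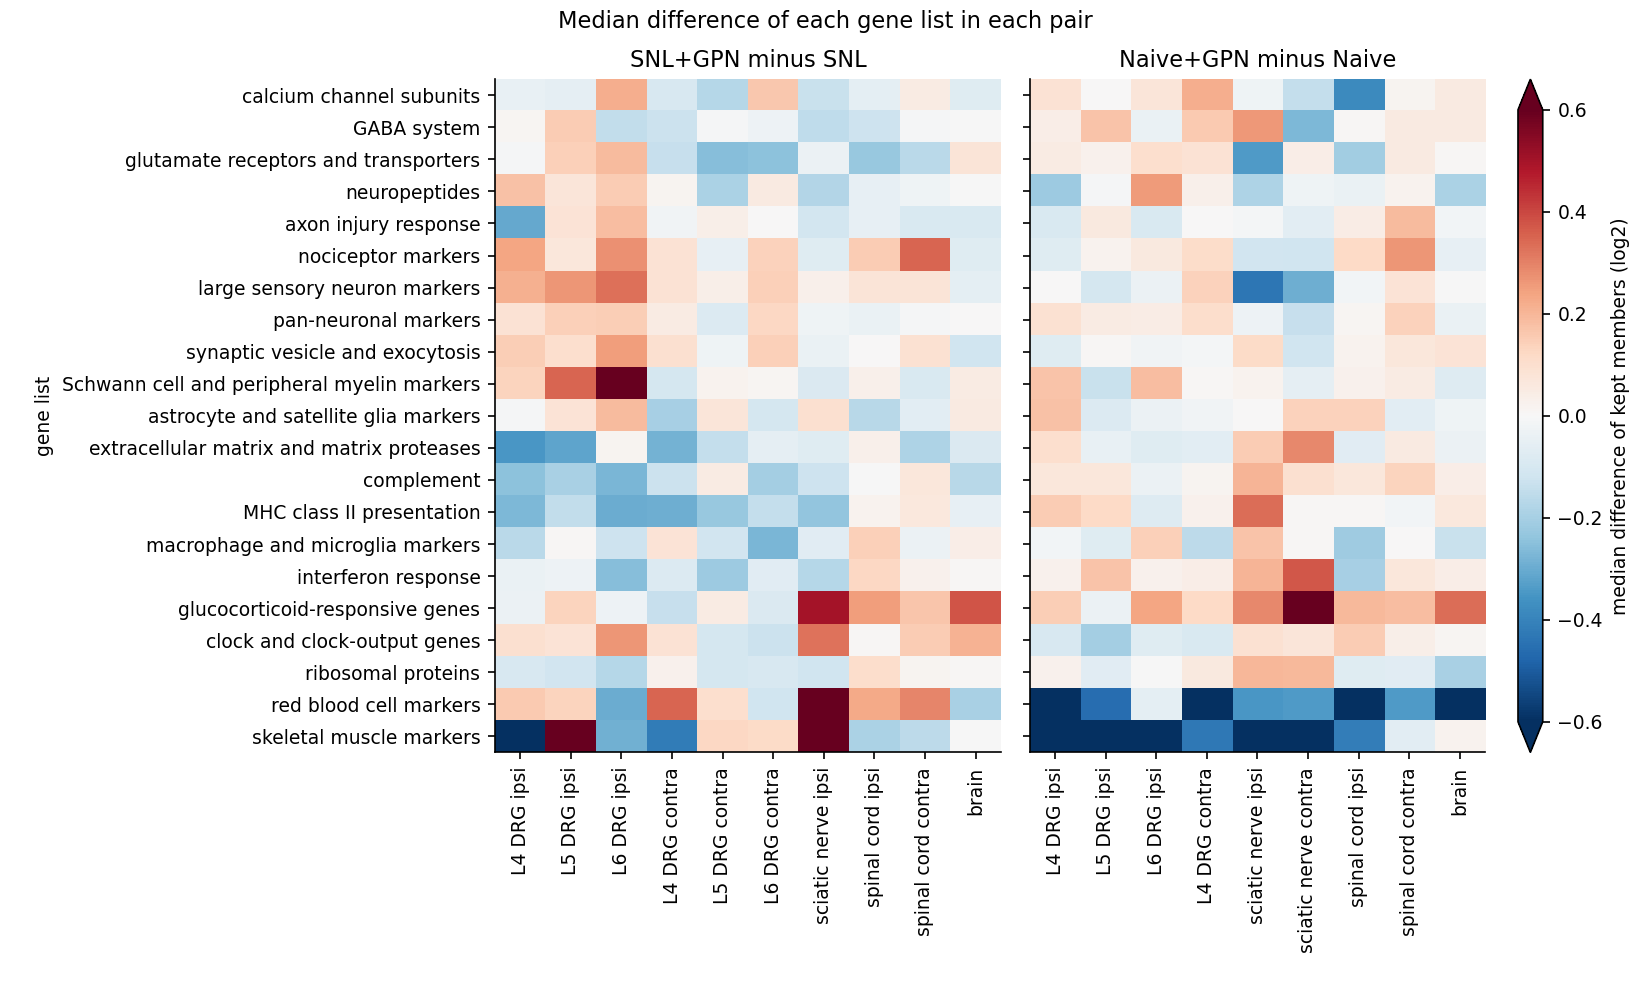
Median difference (log2, colour, limited to 0.6 either way) of the kept genes of 21 lists (rows) in each pair (columns), SNL+GPN minus SNL on the left and Naive+GPN minus Naive on the right. On the left, MHC class II is blue (lower with gabapentin) in all 6 ganglia and matrix and complement in 5 of 6 each; muscle and red blood cell markers change colour between pairs on the left and are blue in most pairs on the right.

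Between the ligated ganglia (L5 and L6 ipsi) and the other 4 the drug difference gave no call either, among 16112 probe sets (0%; lowest adjusted p 0.174, 344 higher and 342 lower at unadjusted p under 0.05); the deposited scale gave 15 higher and 5 lower. Without L5 ipsi, which leaves L6 ipsi alone on the ligated side, 14 were called. The lowest adjusted p was that of Gjb2. It had 31.8 and 43.7 in the SNL+GPN L5 and L6 ipsi ganglia, against 305 and 232 in SNL, and between 29.7 and 96.4 in the other SNL+GPN ganglia, against 22.8 to 63.7 in SNL. Ligated minus other was -2.92 for it (SE 0.34); a second Gjb2 probe set gave -0.88.

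Schwann cell and peripheral myelin genes were higher with gabapentin in the ligated ganglia relative to the rest, 8 of 14 at unadjusted p under 0.05 with none lower and a median of 0.51, where 2.23% of genes were higher and 1.87% lower. Sox10, the master regulator of Schwann cells, had 199 and 217 in the SNL+GPN L5 and L6 ipsi ganglia, against 112 and 87.1 in SNL, and 80.2 to 98.8 in the other SNL+GPN ganglia, against 79.6 to 91.3 in SNL. Its ligated minus other difference was 0.94. Prx and Mbp, of myelin, were at 0.65 each, S100b at 0.68, and Cldn19 at 1.11 (adjusted p = 0.966). With scaling to the median 3 of the 14 were higher, and without L6 ipsi 5 were. Muscle markers were at 1.2 in L5 ipsi, -0.47 in L6 ipsi and -2.28 in L4 ipsi, and their part in the list was not tested. The rise was not particular to Schwann cell genes. Oligodendrocyte markers, some of them shared with that list, had 5 of 12 higher and none lower (median 0.37). Axon injury genes had 4 of 23 higher and none lower (median 0.215). Complement went the other way, with 2 of 20 lower and none higher (median -0.17).

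Single pairs showed how far a pool can stand from its partner. The share of probe sets past 2-fold either way was 3.93% in L4, 2.57% in L5 and 2.84% in L6 ipsi ganglia, 4.77% in L4, 3.06% in L5 and 3.15% in L6 contra, 2.14% in nerve, 1.89% in ipsilateral and 2.69% in contralateral cord, and 2.57% in brain. Naive+GPN against Naive gave 1.43 to 6.37% and Sham against Naive 1.67 to 8.48%, so the drug pairs of ligated rats lay within the range of the other pairs. Muscle genes led several lists: Ckm had 38.3 in SNL+GPN and 1180 in SNL L4 ipsi, and Atp2a1, the calcium pump of fast muscle, 1430 against 241 in L5 ipsi and 803 against 36.9 in nerve. In L6 ipsi, Atp5f1e, a subunit of ATP synthase, had 31.5 against 1170, Rpl13a 75.7 against 1630 and Atp5f1b 82.8 against 1000, in a single SNL+GPN pool. A second Rpl13a probe set there had 557 against 589.

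Gabapentin in naive rats is the background for the drug without injury. RNA quality was uneven in it. The GAPDH ratio (3' over 5' signal) was 8 in the Naive ipsilateral nerve, against 1.64 in Naive+GPN and 3.96 in Sham. Pools of the ligated pairs had 1.02 to 1.73. That Naive pool also enters Sham against Naive and the test of ligated minus naive rats. The ratio was not used as a covariate in these 3 comparisons. Over 9 pairs 2 probe sets passed, 0.0127% of 15758, with 535 higher and 492 lower at unadjusted p under 0.05. Btbd2 rose by 0.52 (adjusted p = 0.0233), with adjusted p of 0.0513 to 0.133 without any 1 pair other than the contralateral nerve. A probe set of Alox15, arachidonate 15-lipoxygenase, fell by 2.47 (adjusted p = 0.000392), to 3.08 to 14.0 in Naive+GPN against 14.3 to 109 in the paired Naive pools; the other Alox15 probe set was at -0.61 (adjusted p = 0.159). Muscle and blood RNA moved with this comparison: at unadjusted p under 0.05, 16 of 21 muscle markers were lower in Naive+GPN (median -0.88), as were 6 of 7 red blood cell markers (median -0.60). With the muscle difference of each pair as a covariate 6 probe sets passed, all lower, and Btbd2 had adjusted p = 0.108. Sham against Naive, which shares those pools, gave 56 calls of 16067 (0.349%; 25 higher, 31 lower), with 18 without the ipsilateral nerve and 0 with the muscle difference as a covariate, Alox15 among them at -1.23, and 16 of 22 muscle markers were lower there too (median -0.84).

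The difference between the drug's effect in ligated and in naive rats, over 8 shared compartments, passed for 2 of 16060 probe sets (0.0125%; 741 higher and 730 lower at unadjusted p under 0.05), and on the deposited scale for 42 higher and 784 lower. Alox15 was at 3.11 (adjusted p = 0.00721). Over their own pairs its drug difference was 0.35 in ligated and -2.47 in naive rats. The same probe set was at -1.23 (limma adjusted p = 0.0317) in Sham against Naive, where no drug was given and the Naive pools are shared. The part of those Naive pools in the Alox15 difference was not tested. A probe set of Scd2, a stearoyl-CoA desaturase of nervous tissue, was at -1.44 (adjusted p = 0.0158), with -0.59 (adjusted p = 0.121) in ligated and 0.67 (adjusted p = 0.403) in naive rats. Its adjusted p was 0.0565 without L4 ipsi, 0.071 without L5 ipsi, 0.0667 without L4 contra and 0.0836 without nerve. It had a lowest, median and highest signal of 369, 678 and 1590 in SNL+GPN, against 515, 1450 and 1810 in SNL. The 7 tested Scd2 probe sets disagreed, 3 lower and 2 higher at unadjusted p under 0.05 in ligated rats, and the brightest was at 0.19. Hbb-bs, a haemoglobin chain, was at 1.73 (adjusted p = 0.114), with 0.42 in ligated and -1.13 in naive rats, and at -0.15 in ligated rats with deposited scaling.

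Glucocorticoid-responsive genes were measured under the drug in both kinds of rat. In ligated rats 5 of 14 were higher and 1 lower at unadjusted p under 0.05 (median 0.14), where 4.83% of all genes were higher and 5% lower. Their ganglia did not share this: over those 6 pairs none was higher and 2 were lower (median 0.02), and the list median was below 0 in 4 of 6 ganglia. The shares of all genes there were 4.14% higher and 4.44% lower. In naive rats 7 of 14 were higher and none lower (median 0.21), where 2.42% of all genes were higher and 3.4% lower. Sgk1 was at 0.40 (adjusted p = 0.229) and 0.54 (adjusted p = 0.24) in ligated and naive rats, Errfi1, a feedback inhibitor of growth factor receptors, at 0.36 and 0.54, and Ddit4, a stress-induced inhibitor of mTOR, at 0.22 and 0.56. In Sham against Naive Sgk1 fell by 0.75 (adjusted p = 0.0116). There 4 of 14 genes of the list were lower and none higher, against 7% lower and 7.92% higher of all genes. Without nerve, the ligated count was 2 higher and 2 lower.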

How the data were processed

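Each RNA pool was hybridised to the Affymetrix rat U34 A, B and C arrays; the deposited values are linear probe set intensities made by the authors with MAS5, per the submitters' processing notes, with version and scaling not given in the sources used here. Trimmed means differed up to 4.66-fold between arrays of a set, so intensities were quantile normalized within each set and compartment, raised by the set's 20th percentile (4.6 to 6.2) and turned to log2. Probe sets above their set's 40th percentile in at least 50% of pairs were kept. Differences per compartment were fitted with limma 3.58.1 (R 4.3.3, lmFit and eBayes with trend) and Benjamini-Hochberg adjustment over all kept probe sets; Cacna2d1 also had an exact sign-flip permutation test. The fit was run on simulated differences, independent between pairs and with shifts larger than most reported here. It thus does not show how the fit performs where tissues share rats or shifts are small. The number of pools limits the precision: the median standard error was 0.0974 over 10 pairs, 0.13 over ganglia and 0.145 over CNS.

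Of 26379 probe sets, 177 are controls, 18178 carried 1 gene symbol, 391 several and 7633 none; 18122 symbols were updated through RefSeq (GRCr8), and a gene stands for its brightest probe set. Genes were named by this rule: those past the threshold, the 3 lowest p in each direction, the 2 lowest p of each list, the 3 highest and lowest differences of each compartment, Cacna2d1 and the 8 injury genes; other list members are examples chosen after their values were seen. The members and gene lists were chosen with earlier results of these data known. Alternatives were the deposited scale, median and pairwise scaling, other constants and filters, no trend, tissue as a block or average, covariates for muscle, red blood cell and RNA quality, and leaving out each compartment.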

Additional observations from a re-analysis of the deposited data

Results flagged for a closer look

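Of 90 differences checked for a pair far from the rest, 10 had one, and chance gives about 1 in 20. Among the genes described above, Inpp4a was at 0.89 in L5 contra, with the next pair at 0.51. Slc13a4 was at -1.37 in L5 ipsi against -0.76 for the next pair, and Mgp, within ganglia, at -1.31 in the same ganglion against -0.69. Hbb-bs was at 2.18 in nerve against 0.88, in the pair where the red blood cell markers differed by 1.28. Ctss, a lysosomal protease of antigen presenting cells, was at -0.85 in L6 contra against -0.33.

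Grin2a, an NMDA receptor subunit, was at 0.96 in contralateral cord, where the next pair had -0.01. Another 3 were in the L6 ipsi ganglion: Vsnl1, a neuronal calcium sensor, at 0.80 against 0.42, Ccnd1, a cyclin, at 1.32 against 0.47, and Rgs5, a pericyte gene, at -1.23 against -0.38. Cd3e, a T cell receptor chain, was at -1.06 in L4 contra against -0.09.

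The drug difference itself differed between ligated and naive rats for a probe set each of Scd2 (-1.44, limma adjusted p = 0.0158) and Alox15 (3.11, limma adjusted p = 0.00721). That Alox15 probe set was also lower in Sham against Naive, without the drug (-1.23, limma adjusted p = 0.0317). The Naive pools are shared by both comparisons, and their part was not tested.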

How the results depend on the processing

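Probe set counts called over the 10 pairs moved with most settings. They were 662 on the deposited scale (49 higher, 613 lower), 84 with tissue as a random block (30 higher, 54 lower), 7 with the muscle covariate and 1 with pairwise quantile normalization. They were 0 with scaling to the median, no filter, no trend, 1 value per tissue, the RNA quality covariate, without nerve, and with the red blood cell covariate chosen after seeing the data; at unadjusted p under 0.05 limma then gave 1562, 2299, 1604, 1120, 1908, 1588 and 1775. On the deposited scale there were 26 in ganglia, 223 in CNS, 20 for ligated minus other ganglia, 2 for Sham and 826 for ligated minus naive. The naive count was 1 with median scaling, the 60th percentile filter or no trend, and 6 with a muscle covariate added later. Sham gave 21 with median scaling, 35 with no trend and 0 with that covariate (987 at unadjusted p under 0.05). Ligated minus naive gave 1 with median scaling, a constant of 1, the 60th percentile filter or no trend. Cacna2d1 was at 0.37 with 1 value per tissue. The median share past 2-fold was 2.77%, 5.75% on the deposited scale and 1.11% with the 40th percentile as constant.

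Leaving out 1 compartment gave 0 to 3 calls over 10 pairs, 0 to 1 in ganglia, 0 to 0 in CNS, 0 to 1 for CNS minus ganglia, 0 to 14 for ligated minus other ganglia, 1 to 2 in naive rats, 18 to 82 for Sham, 1 to 4 for ligated minus naive, and 0.22 to 0.35 for Cacna2d1. The sign turned on the deposited scale for Glul (0.071), Ntrk2 (-0.30), Tef (-0.12), Hsp90b1 (0.006), Ctss (0.012), Dhcr7 (0.043), Rpl41 (0.013), Plk1 (0.005), Hbb-bs (-0.15), Lck (0.094), Tpsb2 (0.096) and Lep (0.016), for Tagln with 1 value per tissue (0.013) and for Defa5 with the RNA quality covariate (-0.011). That scale shifts the median of all probe sets by -0.64 in nerve to 0.56 in L6 ipsi, and by 0.46 for ligated minus other ganglia, 0.17 in naive rats and -0.25 for ligated minus naive; the cause of the other moves was not tested. Samples were paired by compartment throughout; the labels give no replicate numbers to block on. Differences that hold in 1 tissue have no repeat, and probe sets near the floor are understated.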
